A study of Mus musculus with 24 samples.

Results

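The Hox clusters are the 4 groups of neighbouring homeobox genes, HoxA to HoxD, that give cells their position along the head-to-tail axis. The 38 Hox genes listed for the study were taken by name, 10 in HoxA, 10 in HoxB, 9 in HoxC and 9 in HoxD, out of 20665 protein-coding genes on mouse chromosomes 1 to 19. Peaks of 4 histone marks were read over each gene with 1000 bp on each side, and over each whole cluster, from the first base of its first listed gene to the last base of its last, with 10000 bp on each side. The libraries came from lung endothelial cells, the cells that line blood vessels, sorted by flow cytometry from Dnmt3a KO mice, which carry a knockout of a DNA methyltransferase gene, and from WT mice. The labels give no Cre driver, allele, age or sex, so whether the gene was deleted in endothelium or in every cell is not given in the sources used here. There are 24 samples, made by ACT-seq, with 3 in each combination of genotype and mark (8 groups). In this assay an antibody carries the Tn5 transposase to the mark and the DNA there is cut and tagged. The deposited result of a group is 1 table of peak positions and widths, without heights, so no value below has a replicate error, no comparison has a test, and sequencing depth is unknown. A difference between KO and WT is a difference between 2 lists.

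Hox genes are arranged along each cluster in the order in which they are expressed along the body, with low-numbered genes of the anterior end at one side and high-numbered genes of the posterior end at the other. Genes of the same number in different clusters are paralogues. Adult cells keep a memory of their origin in the clusters: the Polycomb complexes hold silent Hox genes under H3K27me3, and the Trithorax group keeps H3K4me3 at the genes that stay on. H3K27ac marks active promoters and enhancers, and H3K4me1 marks enhancers and the flanks of promoters. Lung is known for expression of the anterior HoxA and HoxB genes, among them Hoxa5, which mice need for normal formation of the airways.

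The same layout was seen in both genotypes. H3K27me3 was the main mark of HoxC and HoxD and of the high-numbered side of HoxA, while H3K4me3 stood over Hoxa2 to Hoxa6 and Hoxb2 to Hoxb5. H3K27ac was in both lists over Hoxa3 to Hoxa6, Hoxb3 and Hoxb4, and H3K4me1 over Hoxa3 to Hoxa6 and Hoxb3. At least 1 H3K27me3 peak was listed over 36 members in KO and 31 in WT, where the same rule called 50.6% of all protein-coding genes in KO and 45.5% in WT. H3K4me3 was listed over 13 members in KO and 10 in WT (60% and 52.8% of all genes), H3K27ac over 6 and 8 (57.8% and 64.7%), and H3K4me1 over 9 and 7 (52.9% and 58.5%). Both lists held H3K27me3 over 31 members, H3K4me3 over 9, H3K27ac over 6 and H3K4me1 over 5, against 41.6%, 51.6%, 56.1% and 50.8% of all genes. H3K27me3 stood alone, with no other mark, over 23 members in KO and 26 in WT, against 8.78% and 5.78% of all genes. The listed genes overlap in places (Hoxa4 to Hoxa6 lie inside the annotated span of Hoxa3, Hoxb4 inside Hoxb3, and Hoxd4 inside Hoxd3), so that 1 peak can count for several members. The flanks do the same. Every H3K4me3 and H3K27ac peak counted for Hoxa6 lies outside that gene and also counts for Hoxa5. The 1 KO H3K27ac peak of HoxB counts for both Hoxb3 and Hoxb4.

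**Figure D1:**
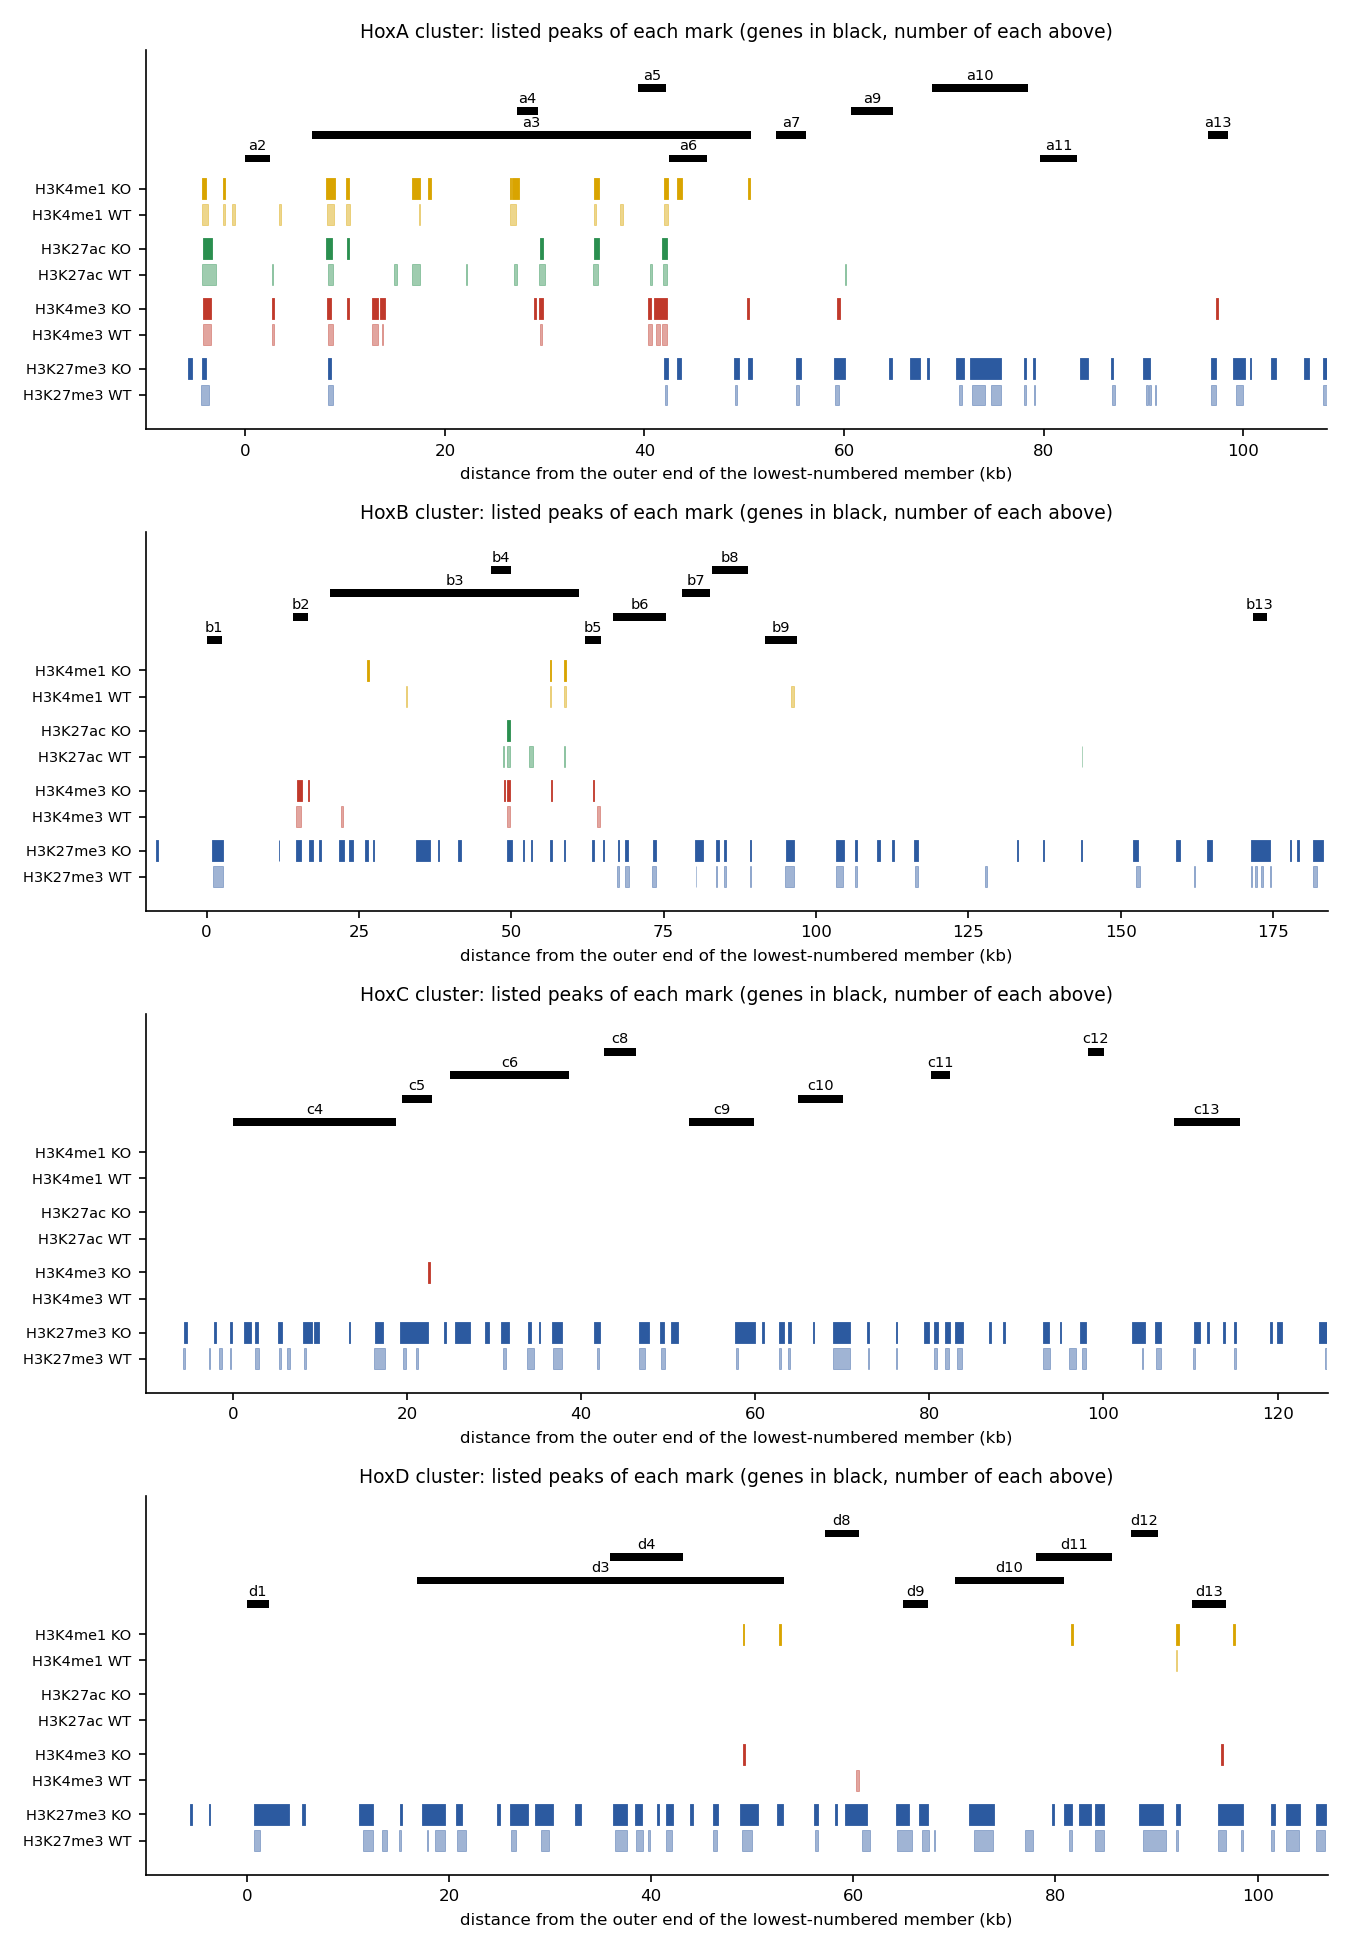
Peaks of the 4 marks along the 4 Hox clusters, KO above WT for each mark, against the distance in kb from the outer end of the lowest-numbered listed gene. Black bars are the annotated genes. Separate H3K27me3 peaks are spread along HoxC and HoxD, the active marks stand at the low-numbered side of HoxA, and KO has H3K27me3 between Hoxb1 and Hoxb6 where WT has none.

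H3K27me3 covered 111377 bp of the 4 clusters in KO and 55983 bp in WT, or 19.7% and 9.91% of their length. HoxD was the most covered, with 37516 bp in KO (32.1%) and 23036 bp in WT (19.7%). In HoxC the covered lengths were 31605 bp in KO (23.3%) and 15113 bp in WT (11.1%). The mark was thinner over the other clusters, with 27138 bp in KO (14.0%) and 9889 bp in WT (5.10%) in HoxB, and 15118 bp in KO (12.8%) and 7945 bp in WT (6.71%) in HoxA. Each cluster therefore held more of the mark in KO. The KO over WT ratio over all 4 clusters was 1.99, near the ratio of 1.90 between the 2 whole H3K27me3 lists. Between clusters the ratio was 2.74 in HoxB, 2.09 in HoxC, 1.90 in HoxA and 1.63 in HoxD, an order that peaks of at least 500 bp did not keep, with 3.00 in HoxC and 2.97 in HoxB.

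**Figure D2:**
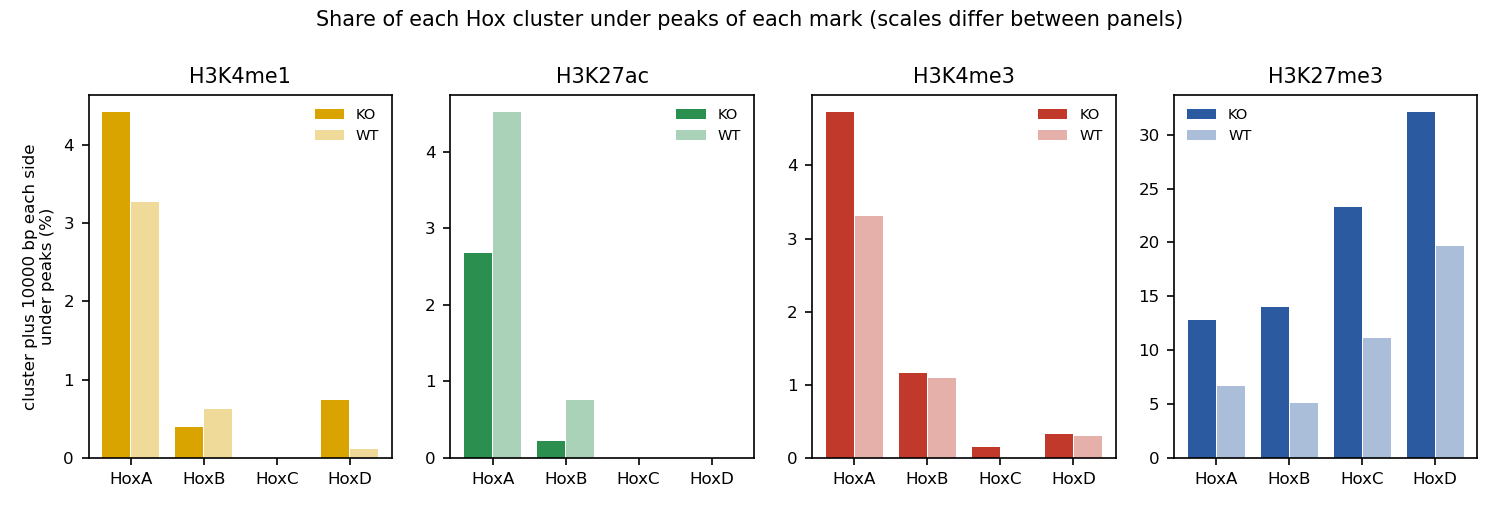
Percent of each cluster, with 10000 bp on each side, under peaks of each mark in KO (dark) and WT (pale), with 1 panel per mark and its own scale. H3K27me3 reaches 32.1% in KO and 19.7% in WT in HoxD, while H3K27ac is listed in HoxA and HoxB.

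The active marks were concentrated in HoxA. H3K27ac covered 3591 bp of the 4 clusters in KO and 6823 bp in WT, of which 3174 bp and 5350 bp lay in HoxA and 417 bp and 1473 bp in HoxB, and no H3K27ac peak was listed in HoxC or HoxD. The KO over WT ratio of 0.526 stood below the 0.733 of the whole H3K27ac lists. H3K4me3 covered 8415 bp in KO and 6380 bp in WT, a ratio of 1.32 against 1.46 for the whole lists. When the longer KO list was shortened to the number of WT peaks, the ratio over the clusters turned to 0.974. The whole lists gave 1.316 under that setting. H3K4me1 covered 6869 bp in KO and 5210 bp in WT, again a ratio of 1.32, against 1.19 for the whole lists. These 3 marks rest on few peaks, 20 and 16 for H3K4me1, 7 and 17 for H3K27ac and 22 and 14 for H3K4me3 in KO and WT.

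Gene by gene, more bases lay under H3K27me3 in KO at 33 of the 36 members with the mark in either genotype, where 74.8% of all marked genes had more in KO, and more lay under it in WT at Hoxb6, Hoxb9 and Hoxd9, where 25% of all marked genes had more in WT. At least 1000 bp of the mark was listed over 26 members in KO and 13 in WT, against 18.1% and 11.1% of all genes. Over the 31 members with the mark in both lists the median KO over WT ratio of covered bases was 1.63, from 0.768 at Hoxb6 to 12.1 at Hoxc9, beside a median of 1.34 over the 8595 genes with the mark in both. The windows of the members were 23.3% covered in KO and 12.1% in WT, against 1.28% and 0.737% for the windows of all genes.

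**Figure D3:**
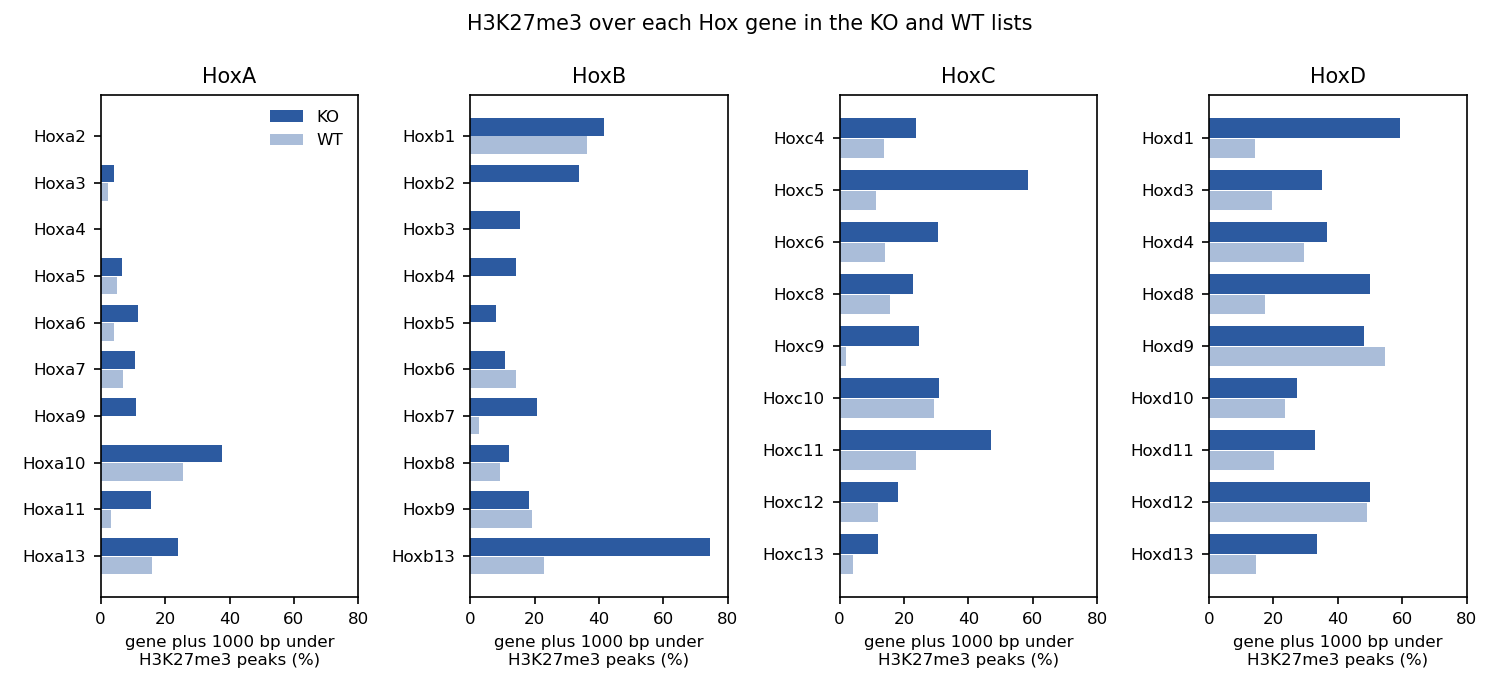
Percent of each Hox gene, with 1000 bp on each side, under H3K27me3 peaks in KO (dark) and WT (pale), from the lowest-numbered gene at the top to the highest-numbered at the bottom of each cluster. Bars are missing in both lists at Hoxa2 and Hoxa4 and in the WT list at Hoxa9 and Hoxb2 to Hoxb5.

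HoxB, on chromosome 11, had the largest share of KO H3K27me3 peaks without a WT peak at the same place, 28 of 43, against 10 of 25 in HoxA, 19 of 48 in HoxC and 11 of 36 in HoxD. In the whole KO list 15947 of 31022 peaks had none. Of the 28 in HoxB, 18 lay in the WT gap between Hoxb6 and Hoxb1 described below, where no KO peak can have a WT counterpart. From Hoxb2 to Hoxb5 the WT list held no H3K27me3 peak while the KO list held a series of them. Hoxb2, a gene of hindbrain patterning, had 1479 bp of H3K27me3 in 2 peaks in KO and none in WT. Hoxb3 had 6582 bp in 12 peaks in KO and none in WT. Hoxb4, known for its role in blood stem cells, had 767 bp in 1 peak in KO and none in WT, and Hoxb5, which is expressed in developing lung, had 372 bp in 2 peaks in KO and none in WT. Both neighbours on the outside carried the mark in both lists, with 1879 bp in KO and 1634 bp in WT at Hoxb1, and 1172 bp in KO and 1527 bp in WT at Hoxb6. With Hoxa9, these 4 genes made 5 members with H3K27me3 in KO and not in WT, where 9% of all genes were called so, and no member had it in WT and not in KO, where 3.87% were. With 5000 bp around each gene, Hoxb5 and Hoxa9 had the mark in WT too and the 5 became 3, and without peaks under 200 bp Hoxb5 lost it in KO.

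The WT gap was chr11:96300898-96365581 (mm10), 64684 bp from the last WT peak at Hoxb6 to the WT peak at Hoxb1, and was the longest stretch without H3K27me3 in any of the 4 clusters in either list. It was singled out after the values were seen. Inside it the KO list held 18 H3K27me3 peaks with 9016 bp, from 121 to 2203 bp wide with a median of 382.5 bp. The widest lay at chr11:96331661-96333863 within the span of Hoxb3, away from peaks of every other mark in both genotypes. On chromosomes 1 to 19 there were 1983 stretches of 50 to 80 kb between neighbouring WT H3K27me3 peaks. Of these, 975 held no KO peak, and the median held 1 peak and 122 bp. The HoxB stretch held more KO peaks and more KO bases than any other, followed by stretches with 10 peaks and with 5700 bp. As it was chosen with its KO values known, this rank describes the stretch and is no test. The 1983 stretches were not limited to gene clusters or to regions rich in the mark. With the KO list shortened to the number of WT peaks, the HoxB stretch kept 10 peaks and 7536 bp and the next values were 7 peaks and 5700 bp. The longest stretch without the mark in HoxB was 16211 bp in KO, on the side of Hoxb13.

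The KO H3K27me3 peaks of this stretch lay partly on active marks and partly between them. Of the 18 peaks, 9 (4326 bp) overlapped a peak of another mark in either genotype and 9 (4690 bp) did not. H3K4me3 was listed at 6 peaks with 2241 bp in KO and at 4 peaks with 2117 bp in WT, and 2 peaks of each list, at Hoxb2 and Hoxb4, overlapped one of the other. The peaks at Hoxb5, 212 bp in KO and 482 bp in WT, did not overlap. A WT peak of 285 bp within Hoxb3, at chr11:96345919-96346203, had no KO counterpart and lay under an H3K27me3 peak of KO. The H3K4me3 peak at Hoxb2 was 866 bp in KO, at chr11:96352575-96353440, and 850 bp in WT, at chr11:96352688-96353537. At Hoxb4 it was 594 bp in KO and 500 bp in WT, and H3K27ac there was 417 bp in KO and 446 bp in WT. All 6 KO H3K4me3 peaks of the cluster lie in the stretch, and 5 of them overlapped a KO H3K27me3 peak. The stretch was singled out with its KO H3K27me3 peaks known, so this count is not set against the whole list. The WT peaks have no such value, since all 4 lie in the stretch that was chosen for holding no WT H3K27me3. H3K27ac was otherwise thinner in KO, with 1 peak and 417 bp in the stretch in KO and 4 peaks and 1375 bp in WT, the 3 further WT peaks lying within the span of Hoxb3. Of the 6 members with H3K4me3 and no H3K27me3 in WT, 4 had H3K27me3 in KO, against 25.7% of all such genes. The 4 are the neighbours Hoxb2 to Hoxb5 of the chosen stretch. Hoxb3 and Hoxb4 share a peak, so these are not 4 separate observations.

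**Figure D4:**
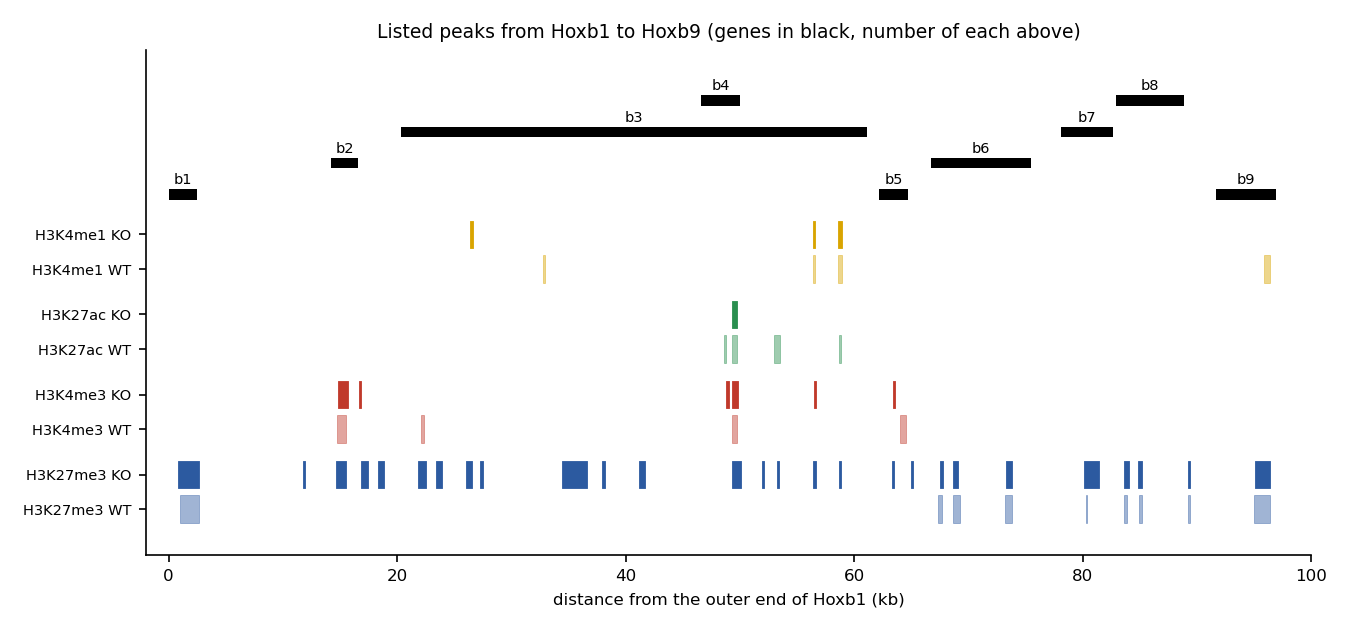
Peaks of the 4 marks from Hoxb1 to Hoxb9, KO above WT, against the distance in kb from the outer end of Hoxb1. Black bars are the annotated genes. In the gap of the WT H3K27me3 list the KO list has 18 peaks, while the H3K4me3 peaks at Hoxb2 and Hoxb4 stand at the same place in both.

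The promoter of Hoxb4 shows the edge of that change at the level of bases. In this window of 300 bases, 250 before and 50 after the start of the RefSeq transcript, at chr11:96318017-96318316 on the plus strand (GRCm38.p6), 132 bases lay under H3K27me3 in KO and 0 in WT, and no base lay under another mark in either. It is printed because DNA methylation acts on CG dinucleotides, whose letters are in capitals, and because the KO mark reaches into it. It holds 14 CG.
Hoxb4: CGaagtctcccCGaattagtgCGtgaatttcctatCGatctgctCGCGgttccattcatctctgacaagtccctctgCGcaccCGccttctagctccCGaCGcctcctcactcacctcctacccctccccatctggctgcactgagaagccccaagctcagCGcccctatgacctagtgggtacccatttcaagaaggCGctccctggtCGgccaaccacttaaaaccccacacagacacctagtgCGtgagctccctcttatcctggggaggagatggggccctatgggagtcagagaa

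Away from the stretch, HoxB resembled HoxC and HoxD, with H3K27me3 as its main mark. Hoxb13, the posterior gene that stands apart from the others and is known from prostate, had a single peak of 3196 bp in KO and 4 separate peaks with 983 bp in WT, or 74.4% and 22.9% of its window. Hoxb7 had 1368 bp in KO and 175 bp in WT, and Hoxb8 had 964 bp in KO and 735 bp in WT. Hoxb9, a gene of the thoracic level, had 1319 bp in KO and 1400 bp in WT, and a WT H3K4me1 peak of 560 bp without a KO counterpart.

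HoxA, on chromosome 6, was divided in both genotypes. From Hoxa2 to Hoxa6 every gene had H3K4me3 within 1000 bp in both lists, Hoxa6 through peaks at Hoxa5 that end before Hoxa6 begins. From Hoxa7 to Hoxa13 H3K27me3 prevailed, with a gap at Hoxa9 in WT. The annotated span of Hoxa3, which contains Hoxa4, Hoxa5 and Hoxa6, held 10 H3K4me1 peaks with 4701 bp in KO and 7 with 2588 bp in WT. It held 5 H3K27ac peaks with 2239 bp in KO and 9 with 3699 bp in WT, and 9 H3K4me3 peaks with 4064 bp in KO and 7 with 2833 bp in WT. H3K4me1 and H3K4me3 thus extended further in KO and H3K27ac further in WT, as in the lists as a whole. H3K27me3 covered 3.97% of this span in KO and 2.27% in WT, against 20.4% and 10.7% of the remainder of the cluster from its end to the end of Hoxa13.

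Hoxa5, the gene of airway formation, had the highest share of its window under H3K4me3 of all members in both lists. It had 1535 bp of H3K4me3 in KO and 1303 bp in WT, 585 bp of H3K27ac in KO and 580 bp in WT, and 361 bp of H3K4me1 in KO and 338 bp in WT. A narrow H3K27me3 peak, 320 bp in KO and 239 bp in WT, lay on the 3 active marks in both. Its promoter is printed as the 1 member promoter of RefSeq under H3K27ac in both lists, at chr6:52204538-52204837 on the minus strand (GRCm38.p6), with its 29 CG in capitals. Of its 300 bases, 132 lay under H3K4me3 in both lists, 185 under H3K27ac in KO and 157 in WT, and 188 under H3K27me3 in KO and 132 in WT.
Hoxa5: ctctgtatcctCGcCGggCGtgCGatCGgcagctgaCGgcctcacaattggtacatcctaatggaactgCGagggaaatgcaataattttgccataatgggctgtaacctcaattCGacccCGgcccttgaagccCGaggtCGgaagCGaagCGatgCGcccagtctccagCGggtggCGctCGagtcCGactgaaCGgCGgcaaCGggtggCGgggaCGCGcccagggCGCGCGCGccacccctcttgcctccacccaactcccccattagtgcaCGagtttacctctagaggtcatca

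Hoxa2, a gene of the hindbrain and the second pharyngeal arch, and Hoxa4 were the 2 members with no H3K27me3 in either list. Hoxa4 had 698 bp of H3K4me3 in KO and 249 bp in WT, and 354 bp of H3K27ac in KO and 886 bp in WT. Hoxa2 kept H3K4me3, with 265 bp in KO and 249 bp in WT, while its H3K27ac (105 bp) and its H3K4me1 (33 bp of a peak) were listed in WT alone. Hoxa6 had 812 bp of H3K4me3 in KO and 591 bp in WT, with H3K27me3 over 674 bp in KO and 239 bp in WT. The H3K4me3 bases and the WT H3K27me3 bases lay outside the gene, under peaks that also count for Hoxa5. No base of its RefSeq promoter lay under any of the 4 marks in either list.

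Across the boundary, Hoxa7 had H3K27me3 over 534 bp in KO and 341 bp in WT. Hoxa9, a gene of blood and endothelial progenitors, had 683 bp of H3K27me3 in KO and none within 1000 bp in WT, where a 124 bp H3K27ac peak was listed instead. A WT H3K27me3 peak of 476 bp lay between Hoxa7 and Hoxa9, under a KO peak of 1107 bp that reaches the window of Hoxa9. A second KO peak of 281 bp, at chr6:52226962-52227242, lay inside the gene and had no WT counterpart. The mark was in KO and not in WT with 0 bp around the gene too, and in both lists with 5000 bp. Hoxa10 held the widest KO peak of HoxA, 3045 bp at chr6:52235066-52238110, where WT had 2 peaks of 1252 and 1022 bp. Hoxa11 had 886 bp in KO and 191 bp in WT. Hoxa13, the gene of the digits, had 967 bp in KO and 637 bp in WT and, in KO, an H3K4me3 peak of 277 bp.

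HoxC, on chromosome 15, was close to a cluster with H3K27me3 alone. All 9 members carried H3K27me3 in both lists, none carried H3K27ac or H3K4me1, and the 1 peak of another mark was an H3K4me3 peak of 195 bp at Hoxc5 in KO. The cluster held 48 H3K27me3 peaks in KO and 34 in WT. The widest KO peak, 3175 bp at chr15:103014435-103017609, covered 58.6% of the Hoxc5 window, where WT had 621 bp (11.5%). The widest WT peak, 2009 bp at chr15:102965951-102967959, lay at Hoxc10, a gene of lumbar motor neurons. That gene differed little, with 2188 bp in KO and 2072 bp in WT. Hoxc9, a gene of thoracic motor neurons, had the highest KO over WT ratio, with 2315 bp in KO and 191 bp in WT, while more bases separated the lists at Hoxc6 (2602) and Hoxc5 (2554) than at Hoxc9 (2124). Hoxc6 had 4797 bp in KO and 2195 bp in WT, Hoxc4 had 4896 bp in KO and 2840 bp in WT, and Hoxc11 had 1964 bp in KO and 990 bp in WT. The remaining genes had from 684 to 1304 bp in KO and from 394 to 906 bp in WT, among them Hoxc13, a gene of hair and nails, with 1168 bp in KO and 394 bp in WT.

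HoxD, on chromosome 2, had the densest H3K27me3 and small peaks of other marks within it. All 9 members carried H3K27me3 in both lists. Hoxd12, a limb gene, had 2341 bp in KO and 2303 bp in WT, and Hoxd9 had 2136 bp in KO and 2429 bp in WT, and these 2 genes had the highest shares of their windows under the mark in the WT cluster, 49.1% and 54.6%. Hoxd1, a gene of pain-sensing neurons, had 2470 bp in KO and 595 bp in WT. Its KO peak, 3459 bp at chr2:74760991-74764449, was the widest in the 4 clusters. Hoxd13, the other gene of the digits, had 1807 bp in KO and 780 bp in WT. Hoxd3, the longest gene of the cluster, had 13404 bp in 14 peaks in KO and 7504 bp in 11 peaks in WT. Hoxd4, Hoxd10 and Hoxd11 had 3368, 3504 and 3125 bp in KO and 2718, 3007 and 1914 bp in WT.

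The other marks of HoxD were narrow. H3K4me1 was listed at 5 peaks in KO, from 132 to 216 bp wide, and at 1 peak of 130 bp in WT. All 5 KO peaks overlapped H3K27me3 of KO. They made Hoxd3, Hoxd10, Hoxd11 and Hoxd13 the 4 members with H3K4me1 in KO and not in WT, where 2.14% of all genes were called so, Hoxd10 and Hoxd11 through a shared peak. The 4 became 1 without peaks under 200 bp and 0 without peaks under 500 bp. The 2 members with H3K4me1 in WT and not in KO were Hoxa2 and Hoxb9, against 7.7% of all genes. H3K4me3 in KO lay at Hoxd13, with 127 bp, and at Hoxd3, with 252 bp, and with Hoxa13 and Hoxc5 these were the 4 members with H3K4me3 in KO and not in WT (8.43% of all genes). Each of these 4 peaks overlapped H3K27me3 of KO and was under 300 bp wide. The 4 became 1 with lists of equal number, 2 without peaks under 200 bp, 0 without peaks under 500 bp and 8 with 5000 bp around each gene. H3K27ac in WT and not in KO was called at 2 members, Hoxa2 and Hoxa9, against 8.57% of all genes, and the reverse at none, against 1.62%. The 2 became 0 with lists of equal number, without peaks under 200 bp and with 0 bp around each gene. Without peaks under 500 bp, 2 members had H3K27ac in KO and not in WT and 2 the reverse.

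Hoxd8 was the 1 member with H3K4me3 in WT and not in KO, a call made at 1.26% of all genes. Its WT H3K4me3 peak was 343 bp, at chr2:74704554-74704896. The KO list has an H3K27me3 peak of 2184 bp over the same place, at chr2:74703737-74705920, where the WT H3K27me3 peak of 771 bp ends before the H3K4me3 begins, at 74704285. The promoters of Hoxd8, Hoxd1 and Hoxd12 are printed to set a change of mark, a gain and no change side by side. All are on the plus strand of GRCm38.p6. At chr2:74704365-74704664 of Hoxd8 all 300 bases lay under H3K27me3 in KO and 0 in WT, and 0 lay under H3K4me3 in KO and 111 in WT. At chr2:74762730-74763029 of Hoxd1 the H3K27me3 bases were 300 in KO and 0 in WT, and at chr2:74674763-74675062 of Hoxd12 they were 300 in both. CG dinucleotides, in capitals, number 6 in Hoxd8, 29 in Hoxd1 and 13 in Hoxd12.
Hoxd8: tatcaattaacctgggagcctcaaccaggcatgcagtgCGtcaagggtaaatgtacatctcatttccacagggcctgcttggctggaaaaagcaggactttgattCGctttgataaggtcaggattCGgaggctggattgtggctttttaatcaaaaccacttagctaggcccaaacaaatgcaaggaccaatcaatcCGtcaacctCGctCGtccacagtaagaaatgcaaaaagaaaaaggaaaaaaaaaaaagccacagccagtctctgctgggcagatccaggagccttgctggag
Hoxd1: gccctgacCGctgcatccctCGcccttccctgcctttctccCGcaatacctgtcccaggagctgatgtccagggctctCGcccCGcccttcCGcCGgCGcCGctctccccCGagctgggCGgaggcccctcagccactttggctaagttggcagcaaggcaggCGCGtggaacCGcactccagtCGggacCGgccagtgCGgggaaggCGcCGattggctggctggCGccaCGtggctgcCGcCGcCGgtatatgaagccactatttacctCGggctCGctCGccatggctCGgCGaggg
Hoxd12: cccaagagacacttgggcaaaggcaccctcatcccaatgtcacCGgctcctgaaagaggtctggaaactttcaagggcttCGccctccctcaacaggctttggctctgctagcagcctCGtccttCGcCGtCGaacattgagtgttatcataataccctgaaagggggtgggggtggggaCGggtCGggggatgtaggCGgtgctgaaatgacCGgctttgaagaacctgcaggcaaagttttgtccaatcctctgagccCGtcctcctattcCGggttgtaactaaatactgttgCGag

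RefSeq promoters were at hand for 22 of the 38 members, in 24 windows. Under H3K27me3 were 13 of these windows in KO and 7 in WT, against 27.3% and 23.3% of the 31396 promoters on the same chromosomes. The 7 WT windows were all marked in KO too, and 6 windows were marked in KO alone. The share of all promoters marked in KO alone was not counted, so these 6 have no background. Their CG count (the letters CG, which read the same on both strands) had a median of 14.5, from 4 to 45, against 7 over all promoters, of which 94.8% hold at least 1 CG. H3K4me3 reached 2 of the 24 windows in KO and 3 in WT, against 36.3% and 31.3% of all promoters. A RefSeq start can lie away from the start that endothelial cells use.

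Position in the cluster and marks went together over the pooled clusters. Differences in H3K27me3 and H3K27ac calls between members came from HoxA and HoxB alone. HoxC has no listed member in groups 1 to 3, so position and cluster are mixed. Hoxb1, of group 1, carried H3K27me3 alone in both lists. H3K4me3 was listed at 5 of 7 members of paralogue groups 1 to 3 in KO and 4 of 7 in WT, at 6 of 15 of groups 4 to 8 in both, and at 2 of 16 of groups 9 to 13 in KO and 0 of 16 in WT. H3K27ac was listed at 2 of 7, 4 of 15 and 0 of 16 members in KO and at 3 of 7, 4 of 15 and 1 of 16 in WT, in the same order. H3K27me3 ran the other way, with 6 of 7, 14 of 15 and 16 of 16 in KO and 4 of 7, 12 of 15 and 15 of 16 in WT. All members of HoxC and HoxD carried H3K27me3 in both lists, so the members without it were Hoxa2 and Hoxa4 in KO, and those with Hoxa9 and Hoxb2 to Hoxb5 in WT. Paralogues of groups 3 and 4 did not all share a state across clusters, while Hoxa13, Hoxb13, Hoxc13 and Hoxd13 all carried H3K27me3 alone in WT. Hoxa3 and Hoxb3 carried H3K27ac in both lists and Hoxd3 in neither. The 1 KO H3K27ac peak over Hoxb3 lies inside Hoxb4, so Hoxb3 adds no place of its own in KO. Hoxa4 and Hoxb4 had H3K4me3 in both lists where Hoxc4 and Hoxd4 had it in neither.

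**Figure D5:**
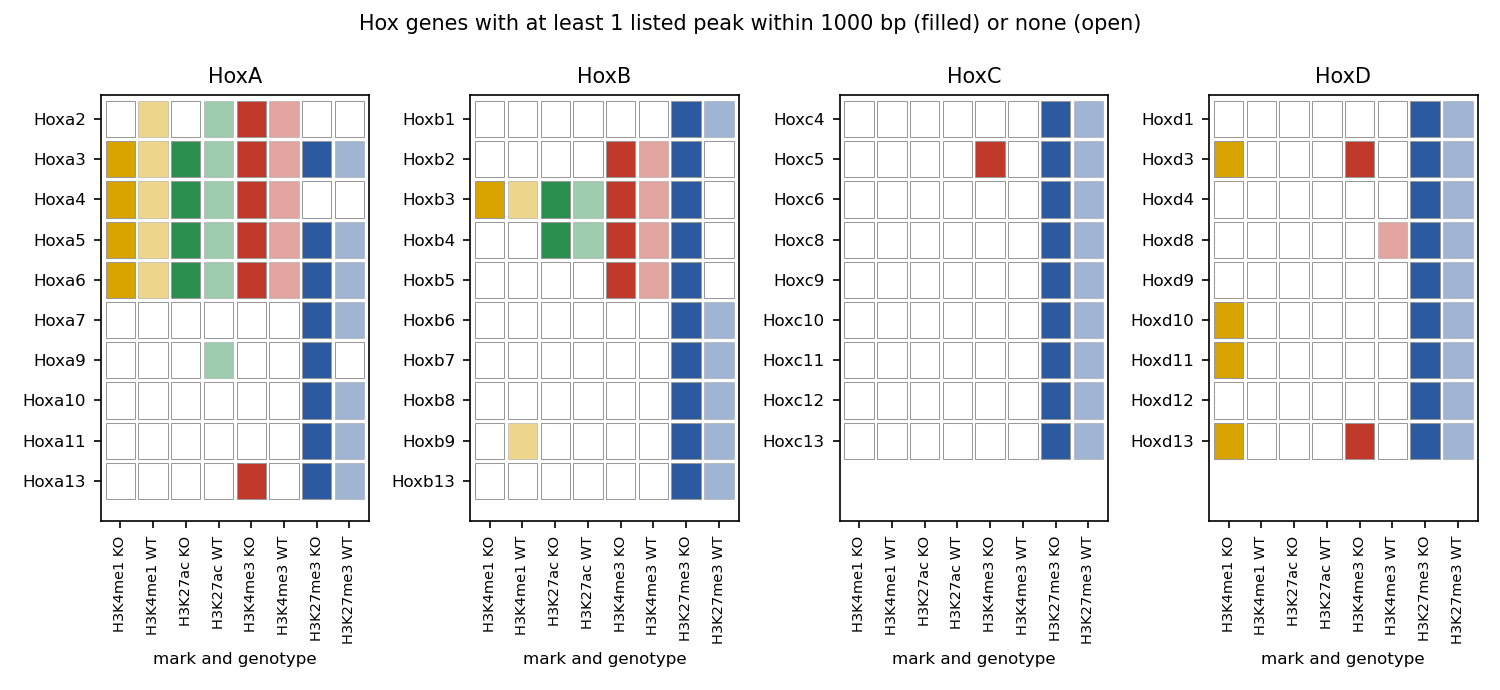
Presence of at least 1 peak of each mark within 1000 bp of each Hox gene (filled) or absence (open), for KO and WT side by side, from the lowest-numbered gene at the top of each cluster. H3K4me3 is filled at Hoxa2 to Hoxa6 and Hoxb2 to Hoxb5 in both lists, H3K27ac in both at Hoxa3 to Hoxa6, Hoxb3 and Hoxb4, and H3K27me3 at Hoxb2 to Hoxb5 is filled in KO and open in WT.

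Most WT H3K27me3 peaks of the clusters had a KO counterpart, while many KO peaks had none in WT. Peaks of both genotypes with at least 1 bp in common were counted as shared. In the clusters 84 of 152 KO peaks were shared (55.3%, exact 95% interval 47.0 to 63.3) and 92 of 103 WT peaks (89.3%, 81.7 to 94.5), against 48.6% and 75.1% of the whole lists. HoxB, with 18 KO peaks inside its WT gap and so unshared by definition, had the lowest KO share, 15 of 43 (34.9%, 21.0 to 50.9). HoxD had the highest, 25 of 36 (69.4%, 51.9 to 83.7). These are Clopper-Pearson intervals for counting error alone, with each peak taken as independent. Shared KO peaks had a median width of 740 bp and unshared ones of 295.5 bp. Where 1 KO peak met 1 WT peak, the KO peak was wider in 59 of 78 pairs, by a median factor of 1.26, near the factor of 1.23 over the whole lists. Few H3K27me3 peaks met another mark here, where other marks have few peaks. Another mark of the same genotype overlapped 20 of 152 KO peaks (13.2%) and 5 of 103 WT peaks (4.85%), against 35.6% and 48.0% in the whole lists. Read from the other marks in HoxA, 5 of 12 H3K4me1, 3 of 6 H3K27ac and 6 of 13 H3K4me3 peaks of KO overlapped H3K27me3. The whole KO lists had 18.6%, 19.7% and 40.2%. In WT these were 3 of 11, 3 of 12 and 3 of 9, against 18.8%, 10.8% and 42.3%.

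MicroRNA genes lie inside the clusters between the Hox genes, and several of their targets in vertebrates are Hox messages. The mature sequences are printed with bases 2 to 8, the seed that pairs with targets, in capitals, to show that genes of different clusters give products of the same seed. Mir10a of HoxB and Mir10b of HoxD share the seed ACCCUGU and differ by U12A, counted from the 5′ end with miR-10a first. Mir196a-2 of HoxC and Mir196b of HoxA share AGGUAGU and differ by A12C, with miR-196a first.
miR-10a-5p: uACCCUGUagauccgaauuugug
miR-10b-5p: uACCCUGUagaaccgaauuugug
miR-196a-5p: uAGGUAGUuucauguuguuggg
miR-196b-5p: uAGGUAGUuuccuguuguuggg

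The nearest H3K27me3 peak differed most between the lists at Mir10a and Mir196b. Mir10a, at chr11:96317165-96317274 in the HoxB stretch, had its nearest H3K27me3 peak at 854 bp in KO and at 16268 bp in WT. Mir10b, at chr2:74726070-74726137 beside Hoxd4, lay under the mark in both lists. Mir196b, at chr6:52230081-52230165 between Hoxa9 and Hoxa10, had the nearest peak at 33 bp in KO and at 3786 bp in WT. The copies of miR-196a differed little, with 114 bp in KO and 205 bp in WT for Mir196a-1 of HoxB and 124 bp in KO and 270 bp in WT for Mir196a-2 of HoxC. Mir615, inside Hoxc5, lay under H3K27me3 in KO and 606 bp from it in WT. None of the 6 had H3K27ac or H3K4me1 within 1000 bp in either list.

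H3K27me3 reached the long noncoding genes within the clusters and the homeobox genes beside them. Hoxb3os, in the HoxB stretch, had 3437 bp of H3K27me3 in KO and none in WT with H3K4me3 over 1065 bp in KO and 1135 bp in WT, from peaks that also count for Hoxb2 and Hoxb3. Hotairm1, at the anterior end of HoxA, carried all 4 marks in both lists, with 935 bp of H3K27ac in KO and 1422 bp in WT. Hottip, beyond Hoxa13, had 1564 bp of H3K27me3 in KO and 596 bp in WT, and Hotair, within HoxC, 990 bp in KO and 740 bp in WT. Evx2, the homeobox gene beside Hoxd13, had 3410 bp in KO and 2924 bp in WT, and Evx1, beyond HoxA, had 3393 bp in KO and 1920 bp in WT. Of the 29 genes found of 31 listed beside or within the clusters, 23 had H3K27me3 in both lists and 3 in KO alone. The shares of all protein-coding genes were 41.6% and 9%. The 3 were Hoxb3os, Mir10a and Mir196b, which lie inside the clusters, so they add no gene outside them. Among the genes farther out, Tax1bp1 beyond HoxA and Mtx2 beyond HoxD had H3K4me3 and no H3K27me3 in either list. Others there carried H3K27me3 in both, with 4128 bp in KO and 1091 bp in WT at Skap1 and 6507 bp in KO and 1310 bp in WT at Ttll6, both beyond HoxB, and 979 bp in KO and 955 bp in WT at Lnpk beyond HoxD.

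Active marks stood over the endothelial marker genes. All 12 listed, among them Pecam1, Cdh5 and Kdr, had H3K27ac and H3K4me1 in both lists, against 56.1% and 50.8% of all genes. H3K4me3 was in both at 11, against 51.6%, Vwf being the exception. H3K27me3 was in both at 7 of the 12, against 41.6%. It was also in both at 5 of 6 epithelial, 6 of 7 mesenchyme and mural, and 0 of 6 leukocyte markers. Of 6 leukocyte markers, 0 had H3K27ac in KO and 1, Ptprc, had it in WT, through a peak of 102 bp, against 57.8% and 64.7% of all genes. Of 6 epithelial markers 3 had H3K27ac in both lists, Cdh1, Sftpc and Sftpb, near the 56.1% of all genes. Of 7 markers of mesenchyme and mural cells 1, Acta2, had it in both and 3 in WT alone, against 8.57% of all genes in WT alone. Whether other cell types had a part in the marks of the Hox clusters was not tested.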

How the data were processed

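ACT-seq of H3K4me1, H3K27ac, H3K4me3 and H3K27me3 was measured in 24 samples, 3 per group of genotype and mark. The deposited values, of the unit class other, are peak positions and widths in bp, in 8 lists made by the authors, 1 per group. The submitters' processing notes name MACS2 2.1.2.1, Bowtie2 2.2.6, deepTools 3.1.1, SAMtools, cutadapt 1.14 and Trim Galore 0.4.4, and the builds mm10 and R64 (yeast), and per the labels' protocols yeast nuclei were added to the cells. How peaks were thresholded, whether the 3 samples were pooled and whether yeast reads set a scale is not given in the sources used here. The mark H3K9me3 is not analysed here.

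From these lists, peaks over genes and clusters and the union of bases under them were computed with scipy 1.17.1, pandas 2.3.3 and numpy 2.4.6 in Python 3.11.15, and plotted by matplotlib 3.10.9, with at least 1 bp of overlap. Gene positions came from the RefSeq table of GRCm38.p6, which has no strand or exons, so exons and introns were not separated. Background shares are over the 20665 protein-coding genes of chromosomes 1 to 19. Any member and any gene of the related or marker lists could be named. The overlap code was tested on simulated data, with 4000 of 4000 counts and 200 of 200 planted genes right over the 20665 genes. The members and lists were chosen with earlier results of these data known. With 1 list per group, leaving out a replicate and a replicate block could not be run. Other windows, widths, list lengths, flanks and sharing rules were tried.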

Additional observations from a re-analysis of the deposited data

How the results depend on the processing

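Of 300 values under the alternatives, 242 kept their direction and stayed within a tolerance, 1.5 times the reported value for counts, lengths and ratios and the exact 95% interval for percentages, 57 moved beyond it and 1 reversed. The reversed one was the KO over WT ratio of H3K4me3 over the 4 clusters, 0.974 with lists of equal number. That setting also gave 67.6% of KO and 78.6% of WT H3K27me3 peaks shared. Hoxb2 and Hoxb4 had H3K27me3 in KO under every window, width and list length for which they gave a value, and none in WT with windows of up to 5000 bp on each side. Hoxb5 lost the KO mark without peaks under 200 or 500 bp and with lists of equal number, and Hoxb3 lost it where only its annotated ends were read. Without peaks under 500 bp the KO bases in the HoxB stretch were 5786, the shared KO peaks 45.5%, the members with H3K27me3 in WT 20, in KO only 12 and in WT only 1, and the members with H3K4me1, H3K27ac and H3K4me3 2, 3 and 6 in KO and 3, 3 and 6 in WT. With 0.5 of a peak needed for sharing, 38.2% of KO peaks were shared. With 5000 bp around genes, 14 members had H3K4me1 in KO and 3 had H3K27me3 in KO only, and with 0 bp, 4 members had H3K4me1 and 4 had H3K27ac in WT. At the start of the gene alone, known for 22 members, H3K4me1, H3K27ac, H3K4me3 and H3K27me3 were at 4, 2, 6 and 19 members in KO and at 2, 3, 4 and 13 in WT. With paralogue groups 1 to 4, 5 to 9 and 10 to 13, H3K27me3 was at 100% of the middle groups in KO and 100% of the highest groups in WT. Causes of these changes were not tested. No paired analysis was possible because each group has 1 list of peaks, and for the same reason no alternative left out a replicate. Peak lists hold no height or depth, so a mark below the threshold of a list cannot be told from an absent one, and whether the lists of KO and WT were called at like depth is unknown.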

Other observations

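Of the 9 genes of Hox cofactors, proteins that bind DNA together with Hox factors, from the Meis, Pbx and Pknox families, 6 had H3K27ac in both lists, against 56.1% of all genes, and 7 had H3K27me3 in both, against 41.6%. Meis2 carried 9 H3K4me3 peaks in KO and 9 in WT and no H3K27me3, while Meis3 had H3K27me3 over 1086 bp in KO and 2424 bp in WT and none of the active marks. Pknox2 had 2816 bp of H3K27me3 in 9 peaks in KO and 1465 bp in 2 peaks in WT, and 2250 bp of H3K4me3 in KO against 1093 bp in WT.

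Of 8 genes found whose products act on Hox genes, 6 had H3K27me3 in both lists, against 41.6% of all genes, and 2, Rarg and Cyp26b1, in KO and not in WT, against 9%. Rarg, a retinoic acid receptor, had 1 peak of 1383 bp in KO. Cdx2, a homeobox gene of the posterior body, had 3150 bp of H3K27me3 in KO and 1329 bp in WT and no H3K27ac or H3K4me3. Among genes of the complexes that maintain Hox states, H3K4me3 was in both lists at 11 of 12 genes of Polycomb repressive complex 1, with Cbx7 marked in KO alone, and at 5 of 5 genes found for Trithorax proteins and a demethylase, among them Kmt2a and Kdm6b, against 51.6% of all genes. H3K27me3 was in both lists at 8 of the 12 and 3 of the 5, against 41.6%.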
